A study of Mus musculus with 50 samples.

Results

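The homeostatic microglia signature was followed here through 29 listed genes, matched by symbol among the 48526 genes of the count table. The genes were measured by RNA sequencing in 50 libraries of microglia sorted from the brain by flow cytometry, 1 mouse per library as far as the animal numbers tell, in 14 groups. All mice had loxP sites on both copies of Hdac1 and Hdac2, the genes of a pair of closely related histone deacetylases. Controls carried no Cre, so an effect of the deletions and an effect of carrying Cre cannot be told apart. Constitutive knockouts carried CX3CR1-Cre and, like their controls, were not treated; 4 controls and 3 knockouts were sampled as neonates (P0), 4 and 2 at 14 days (2 weeks), and 4 and 3 at 45 days (6 weeks). Inducible knockouts carried CX3CR1-CreERT2, a Cre that enters the nucleus in the presence of tamoxifen. They and their Cre-free controls came from dams given 3 mg tamoxifen, with progesterone, on embryonic day 13. This model was sampled on embryonic day 16 (E16; 4 controls and 3 knockouts), at P0 (3 and 4), at 14 days (4 and 4) and at 45 days (4 and 4). The Cx3cr1 promoter that drives both forms of Cre is active in microglia, and also in other macrophages and in monocytes. P-values measure the spread between these libraries.

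Microglia are the resident macrophages of the brain. In the healthy adult brain they express a set of genes that sets them apart from other macrophages, known as the homeostatic signature, which builds up as the brain matures. It depends on TGF-beta signalling and on transcription factors that include PU.1, SMAD3, MEF2C and SALL1, and it is reduced in injury, in disease and in culture. HDAC1 and HDAC2 remove acetyl groups from histones as part of co-repressor complexes and can partly stand in for each other. By role, 10 of the 29 genes code for surface receptors and adhesion proteins, 6 for secreted proteins, 2 for membrane transporters, 4 for enzymes of eicosanoid and lipid mediator synthesis, 3 for Golgi proteins and glycan enzymes, and 4 for regulators of the cytoskeleton. Levels are given as CPM, the count of a gene relative to the total count of its library. The genes were judged with edgeR's quasi-likelihood test at an adjusted p of 0.05, and "rose" and "fell" are used only of genes that passed.

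RefSeq promoters (GRCm38.p6, 250 bases before to 50 after a start site) were found for 20 of the 29 genes, 25 promoters in all, among 32851 in the table. Of these, 2 are printed: that of Fcrls, an Fc receptor-like surface protein of microglia that fell at every constitutive age and at inducible P0, and that of Olfml3, a secreted matrix protein that stood near its control level at 6 weeks. The Fcrls window lies at chr3:87263475-87263774 and the Olfml3 window at chr3:103737952-103738251, both given on the minus strand, 5′ to 3′. Capitals mark the PU.1 letters GAGGAAG and the SMAD letters GTCTG, the latter reading CAGAC where the match is on the opposite strand.
Fcrls: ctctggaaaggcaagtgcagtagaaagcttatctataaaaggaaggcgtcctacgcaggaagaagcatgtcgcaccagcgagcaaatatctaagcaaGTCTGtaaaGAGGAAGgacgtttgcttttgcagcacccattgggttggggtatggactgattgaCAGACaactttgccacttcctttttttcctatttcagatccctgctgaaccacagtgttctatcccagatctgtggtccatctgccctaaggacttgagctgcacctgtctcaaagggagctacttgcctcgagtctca
Olfml3: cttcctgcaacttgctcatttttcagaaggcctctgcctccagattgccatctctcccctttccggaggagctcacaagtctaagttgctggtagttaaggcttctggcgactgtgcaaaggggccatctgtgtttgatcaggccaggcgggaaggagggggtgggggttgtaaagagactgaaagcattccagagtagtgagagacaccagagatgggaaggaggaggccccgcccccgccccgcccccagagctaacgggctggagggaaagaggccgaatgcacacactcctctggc
In Fcrls the PU.1 letters span bases 107 to 113 of the window, and the SMAD letters lie at bases 98 to 102 and 162 to 166. The Olfml3 window held none of the motifs searched. Of the 25 promoters, 7 (28%) held GAGGAAG on either strand, against 13.6% of all promoters, and 18 (72.0%) held GTCTG, against 49.6%. GAGGAAGT, the longer PU.1 form that includes the shorter, was found in 3 (12%, against 3.20%). The MEF2 motif was found in 1 (4.0%, against 3.69%) and the AP-1 letters TGANTCA in 2 (8.0%, against 7.81%). The IRF motif and the SMAD palindrome GTCTAGAC were found in none, against 3.44% and 0.213% of all promoters. Matches are letters in a window and do not show that a factor binds there.

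Library totals ran from 11050277 to 29651179 counts. Of the 29 genes, 28 were tested in every comparison. The 29th, Gal3st4, a sulphotransferase of glycans, reached at most 0.229 CPM, and 99.05% of its exon bases are shared with 2 other genes, so it is not described further. Exon bases shared with a neighbour also made up 75.78% of Abi3, 29.32% of Golm1, 26.43% of Ltc4s and 25.97% of St3gal6, where reads without strand can come from either gene. Hdac1, Hdac2 and Cx3cr1 were read as a check of the labels. Cx3cr1 was lower in every knockout than in every control of its age and model (64.1 to 4804 CPM over the knockouts, 2403 to 8448 CPM over the controls). Hdac2 was below all controls in every inducible knockout but 1 and in every constitutive knockout at 6 weeks, and at constitutive P0 it overlapped the controls (124 to 191 CPM, controls 126 to 164). In the 6-week inducible groups Hdac1 overlapped (11.1 to 13.5 CPM, controls 12.8 to 18.9). Of the knockout libraries, 4 stood apart. At constitutive P0, Hdac1 was at 35.7 CPM in animal 68, above the controls (11.4 to 13.6), and at 10.3 and 8.86 CPM in animals 73 and 76. At constitutive 6 weeks it was at 92.2 CPM in animal 380, above the controls (13.4 to 16.6), and at 7.56 and 11.5 CPM in the other two knockouts. Hdac2 in animal 89 at constitutive 2 weeks (70.1 CPM) lay within the control range (59.8 to 71.3), with animal 80 at 41.0 CPM. At E16, Hdac2 was at 316 CPM in the library labelled knockout 1, above the controls (133 to 165), and at 71.4 and 68.6 CPM in the other two. This library was also the smallest of all, with 13344 CPM of erythroid markers and 3217 CPM of neuron markers, against 746 to 1025 and 404 to 591 CPM in the other two E16 knockouts. Counts of called genes are given below with and without these 4 libraries, as are the knockout changes of single genes that one of them moved by over 1.5 times or whose call it ended.

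In control libraries the signature was largely gained between birth and 2 weeks. All 28 genes rose from P0 to 2 weeks in the constitutive controls (26.7% of all genes tested rose and 36.6% fell) and 27 of 28 in the inducible controls (21.9% rose and 32.7% fell), Fcrls being the gene that did not pass. The median rise was 1.90 and 1.98 on the log2 scale, where the median over all genes tested was -0.07 and -0.06. Selplg, which codes for the P-selectin ligand PSGL-1, rose the most in both models, by 3.96 ± 0.11 and 3.66 ± 0.15. It was followed by Ecscr, an endothelial cell surface regulator, with 2.97 ± 0.13 and 3.27 ± 0.19. In the constitutive controls the third largest rise was that of Tmem119, a transmembrane protein used as a microglia marker (2.89 ± 0.14), and in the inducible controls that of Jam2, a junctional adhesion molecule (3.15 ± 0.17). At the other end stood Hpgds, the hematopoietic prostaglandin D synthase, which rose by 0.39 ± 0.10 in the constitutive controls. Fcrls changed least in the inducible controls (0.47 ± 0.19, adjusted p = 0.0579). Markers of other cells also differed between these control groups, and their part in the rise was not tested. Mean border macrophage sums were 2578 CPM at P0 and 156 CPM at 2 weeks (constitutive), and 9519 and 113 CPM (inducible). Mean neuron marker sums were 1105 and 21.8 CPM, and 534 and 30.5 CPM. Mean pan-macrophage sums were 20062 and 30697 CPM, and 21999 and 31719 CPM.

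**Figure D1:**
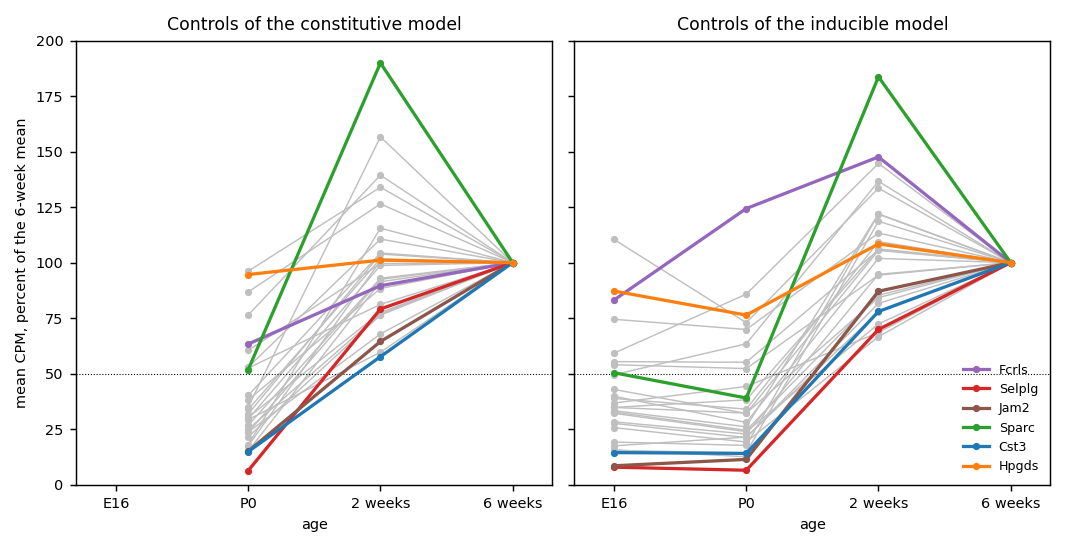
Mean level of each of the 28 measured signature genes in control libraries at each age (x axis), as a percent of its mean at 6 weeks in the same model (y axis, linear), with 1 panel for each model, 6 genes in colour and a dotted line at 50%. The median gene sits at 31.0% (constitutive) and 30.0% (inducible) at P0 and at 95.9% and 103.7% at 2 weeks, Selplg being the lowest at P0 (6.24% and 6.44%) and Sparc the highest at 2 weeks (190% and 184%).

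Read as the first age at which the control mean reached 50% of its 6-week value, the genes fell into an early and a late set. Of the 28, 8 were already past 50% at E16 in the inducible controls: Bin1, Fcrls, Hpgds, Ltc4s, Ptgs1, Rnase4, Serpine2 and Sparc. These 8 were also past 50% at P0 in the constitutive controls, where Cd81 joined them at 52.4%. Sparc, at 50.4% on E16, was back below the line at inducible P0 (39.00%). Serpine2, the protease inhibitor nexin-1, was the highest on this scale, at 110% of its 6-week level at E16 and 96.1% at constitutive P0. Lag3, an inhibitory receptor best known from T cells, passed 50% at P0 in the inducible controls (63.4%) and at 2 weeks in the constitutive controls (59.6%). In each model 19 genes passed it first at 2 weeks. The lowest at birth were Selplg (6.24% in the constitutive and 6.44% in the inducible controls), Jam2 (15.01% and 11.3%), Cst3 (14.8% and 14.04%) and Tmem119 (15.1% and 12.5%).

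From E16 to P0 no signature gene passed the test in the inducible controls (0.0464% of all genes rose and 0.0116% fell). At an unadjusted p under 0.05, 2 were higher and 2 lower (5.91% and 4.96% of all genes), and DESeq2 called 1 lower, Susd3 (1.04%). The median control level was 34.8% of the 6-week value at E16 and 30.0% at P0. Serpine2 had the lowest log2 difference of this step (-0.58 ± 0.19, adjusted p = 0.304) and Fcrls the highest (0.59 ± 0.17, adjusted p = 0.261).

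Between 2 and 6 weeks some genes rose and some fell. In the constitutive controls 7 rose and 4 fell (8.8% and 8.93% of all genes), or 3 and 7 when libraries were scaled to 18 pan-macrophage genes (5.23% and 13.2% of all genes). In the inducible controls 4 rose and 6 fell (8.13% and 8.98%), or 2 and 11 under that scaling (5.47% and 16.4%). In 1 fit over all 14 groups, 1 rose and 1 fell in the constitutive (3.84% and 4.04%) and 0 and 1 in the inducible controls (3.27% and 3.85%). The median difference was 0.03 and -0.12, against 0.01 and -0.003 over all genes tested. Sparc, a secreted matricellular protein, fell by the most in both models. Its constitutive control libraries held 9206, 9443, 10479 and 9139 CPM at 2 weeks and 4851, 5185, 5484 and 4620 CPM at 6 weeks, a difference of -0.96 ± 0.09. In the inducible controls the values were 9414, 9643, 8805 and 8968 CPM and then 4960, 4835, 4734 and 5516 CPM, a difference of -0.95 ± 0.08. The 2 ages did not overlap in either model. Ltc4s, the leukotriene C4 synthase, also fell in both (-0.51 ± 0.13 and -0.60 ± 0.13). Liph, a lipase that makes lysophosphatidic acid, fell in the constitutive controls (-0.68 ± 0.13), and Lag3 in the inducible controls (-0.51 ± 0.16), whereas Lag3 rose in the constitutive controls (0.71 ± 0.18). The other large rises were those of Cst3 (0.76 ± 0.10) and Jam2 (0.60 ± 0.13) in the constitutive controls, and of Cd81 (0.48 ± 0.09), Selplg (0.45 ± 0.10) and Abi3 (0.40 ± 0.10) in the inducible controls. These counts depended on single libraries. The constitutive count of rises was 3 without control 77 (2 weeks) or the second 6-week control and 4 without control 78 or 83 (2 weeks) or the first or the fourth 6-week control, in order of animal numbers, and that of falls was 2 without control 77. The inducible count of falls was 3 without control 1 (2 weeks) or control 10 (6 weeks).

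Per kilobase of gene length, the 6-week order was led by Cst3, the secreted protease inhibitor cystatin C, with 21094 CPM per kilobase in the constitutive and 19298 in the inducible controls. The next in the constitutive controls were Fcrls (2100), Sparc (1495), Tmem119 (1294) and Selplg (1105), and in the inducible controls Sparc (1488), Tmem119 (1406), Selplg (1198) and Cd81 (1051). Fcrls stood at 976 CPM per kilobase in the inducible controls, where its 4 libraries at 6 weeks held 1192, 2807, 2628 and 2481 CPM against 5106, 4968, 5159 and 4373 CPM in the constitutive controls. The lowest of the 28 were Abi3 (26.3 and 26.8) and Liph (17.4 and 20.95).

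Signature genes were low in knockouts at birth, and at 6 weeks the constitutive knockouts were still below their controls in most of them. In the constitutive knockouts 26 of 28 genes fell at P0 (20.2% of all genes tested fell), 26 at 2 weeks (17.8%) and 20 at 6 weeks (5.24%), and none rose (21.4%, 24.4% and 6.76% of all genes rose), although 5 rose and 19 fell at P0 when libraries were scaled to the pan-macrophage genes (87.9% and 1.42% of all genes). Under that scaling Selplg, Adgrg1, Arhgap5, Jam2 and Fscn1 rose at P0. Of these, Selplg, Adgrg1 and Arhgap5 had fallen under the main scaling. The P0 falls of Cd81, Serpine2, Rnase4 and St3gal6 did not pass under it. None was higher by DESeq2 or at an unadjusted p under 0.05 at these ages (26.2%, 27.9% and 12.4% of all genes were). The median change was -2.58, -2.10 and -0.66 on the log2 scale, against 0.04, 0.002 and -0.007 over all genes tested. In the inducible knockouts 16 genes fell and 1 rose at P0 (3.56% and 6.81% of all genes), or 12 and 2 under the pan-macrophage scaling (1.35% and 32.5%), where Selplg (-0.34), Hpgds (-0.31), St3gal6 (-0.11) and Arhgap5 (-0.20) did not pass. Hpgds also did not pass without knockout 48 or control 54 or 55, nor St3gal6 without knockout 48, 49 or 57 or control 54 or 55. At 2 weeks 1 fell and none rose (1.13% and 1.11%), none being higher by DESeq2 or at an unadjusted p under 0.05 (7.8% of all genes) and 4 lower at the latter (8.1%). Without knockout 6 of that group, 5 fell: Lag3, Jam2, Cst3, Liph and Hpgds (the share over all genes is not given for that fit). At 6 weeks none passed edgeR's test (0.0141% and 0.0492% of all genes fell and rose). At an unadjusted p under 0.05, 2 were lower and 1 higher (1.95% and 2.45% of all genes), and DESeq2 called 1 lower, Liph (0.0985%), which edgeR also called without control 10 or knockout 4. In order of age after birth, the inducible medians were -0.80, -0.11 and -0.05, against -0.008, -0.007 and 0.008. In bulk libraries fewer microglia among the sorted cells and less RNA of a gene per microglia cannot be told apart.

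On E16 edgeR called no gene of all 17594 tested (0.0% in either direction), while the signature's median was -0.75 against 0.12 over all genes tested. At an unadjusted p under 0.05, 11 signature genes were lower and none higher (5.5% and 7.6% of all genes). DESeq2 called 6 lower (2.39% of all genes) and none higher. In 1 fit over all 14 groups edgeR called 13 lower and none higher (4.73% and 2.63% of all genes). Without the library labelled knockout 1, edgeR called 6 lower (1.24%): Selplg (-0.62 ± 0.13), Adgrg1 (-1.91 ± 0.28), Ecscr (-1.93 ± 0.36), Slc2a5 (-1.42 ± 0.19), Hpgds (-0.58 ± 0.12) and Ptgs1 (-0.94 ± 0.14). Scaled to the pan-macrophage genes the median was 0.03 against 1.19 over all genes. That scaling moved the median over all genes by 1.08 here, 1.79 at constitutive P0, 0.45 at inducible P0, -0.39 at constitutive 2 weeks and -0.17 at constitutive 6 weeks. Every knockout library lay below every control in 10 of the 28 genes (5.79% of the same number of most abundant genes) and above in none (13.3%).

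**Figure D2:**
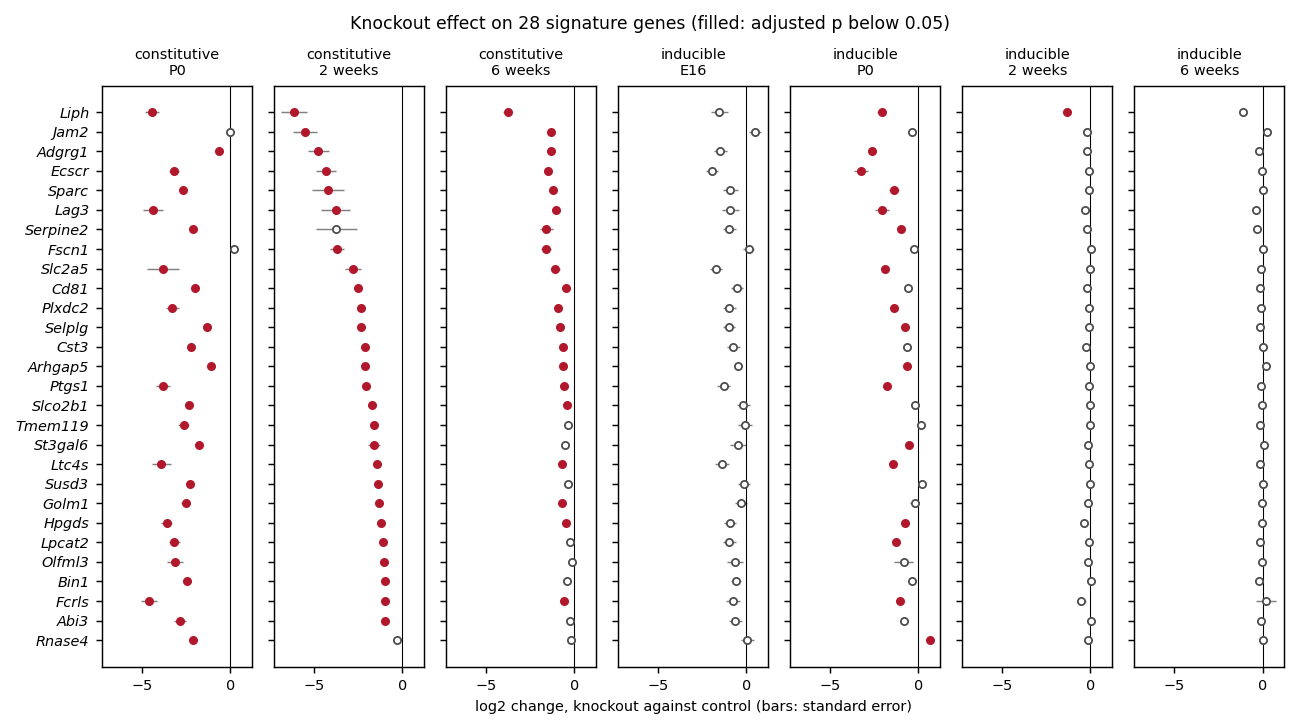
Knockout minus control on the log2 scale for each of the 28 signature genes (rows) in the 7 knockout comparisons (panels), from edgeR, with bars for the SE and filled points for genes past an adjusted p of 0.05. The constitutive columns are mostly below 0 (medians -2.58, -2.10 and -0.66) and the inducible columns move towards 0 with age (medians -0.75, -0.80, -0.11 and -0.05).

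The other signature genes on the second list, 30 in all and among them P2ry12, Sall1 and Csf1r, gave counts of the same kind. In the constitutive knockouts 29 fell at P0 (20.2% of all genes tested), 25 fell and 1 rose at 2 weeks (17.8% and 24.4%), and 10 fell at 6 weeks (5.24%). In the inducible knockouts none passed at E16 (0.0% in either direction), 15 fell and 1 rose at P0 (3.56% and 6.81%), and 1 fell at 2 weeks and at 6 weeks (1.13% and 0.0141%). Their medians were -2.67, -1.24 and -0.32 in the constitutive and -0.50, -0.57, -0.09 and -0.07 in the inducible comparisons. From P0 to 2 weeks 28 and 26 of the 30 rose in the constitutive and inducible controls (26.7% and 21.9% of all genes). That list and the 29 genes were both chosen with earlier results known, and nothing particular to either is read from these counts. The 30 include Cx3cr1, whose promoter drives both forms of Cre. It was at 3073 to 3682 CPM in the inducible knockouts at 2 weeks (controls 5248 to 6972 CPM). At inducible 6 weeks it was at 3085 to 4175 CPM (controls 6394 to 8448 CPM). An effect of carrying Cre cannot be told apart there. Csf1r and Spi1 of the 30 are also among the 18 pan-macrophage genes.

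The levels of other cell types' markers differed between the same groups, and their part in the signature's change was not tested. At constitutive P0 the 28 genes and Gal3st4 summed to 3830 to 5913 CPM in the knockouts and 19817 to 21514 CPM in the controls, and the 18 pan-macrophage genes to 4553 to 7082 and 16417 to 21856 CPM. All 13 neutrophil markers rose there (7720 to 11913 CPM in the knockouts, 694 to 1656 CPM in the controls), as did all 12 neuron markers (2864 to 3569 and 814 to 1761 CPM) and all 11 astrocyte markers (3148 to 3482 and 891 to 1710 CPM). Over all genes tested, 21.4% rose at constitutive P0, 24.4% at 2 weeks and 6.76% at 6 weeks. In the inducible model 6.81% rose at P0, 1.11% at 2 weeks and 0.0492% at 6 weeks. At constitutive 2 weeks the pan-macrophage sum was 24903 to 25525 CPM in the knockouts and 29061 to 31788 CPM in the controls. There 13 of 13 neutrophil markers rose (18783 to 53539 CPM, controls 120 to 879 CPM), with 11 of 11 monocyte markers (2142 to 5055 CPM, controls 20.8 to 81.1 CPM) and 10 of 11 border macrophage markers (3077 to 3125 CPM, controls 130 to 189 CPM). Which cells the pan-macrophage RNA of these bulk libraries came from was not tested. Neuron markers summed to 4.25 to 6.35 CPM in these knockouts and 18.8 to 24.5 CPM in their controls. At constitutive 6 weeks 9 of the 10 neutrophil markers tested rose (2313 to 5159 CPM, controls 422 to 721 CPM), with 7 of 11 border macrophage markers and 5 of 11 monocyte markers. Pan-macrophage sums overlapped at 6 weeks (29706 to 32277 and 29795 to 33593 CPM). In the inducible knockouts at P0 the pan-macrophage sum was 14846 to 16712 CPM against 20606 to 23031 CPM, and none of the 13 neutrophil and 12 neuron markers passed the test. Border macrophage markers were high in both genotypes there (8670 to 15602 CPM in knockouts, 3143 to 12725 CPM in controls), none of the 11 passing. In the inducible model at 2 weeks every knockout (158 to 384 CPM) lay above every control (93.9 to 138 CPM) in the sum of border macrophage markers, of which 2 of 10 tested rose, and 1 of 10 neutrophil markers rose. At inducible 6 weeks knockout 6 held 8780 CPM of neutrophil markers and 614 CPM of monocyte markers, against 652 to 1166 and 67.0 to 115 CPM in the other knockouts, and no marker of either list passed. None of the markers of the neutrophil, monocyte, border macrophage, neuron and astrocyte lists was at 0 in every library of any of these groups.

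**Figure D3:**
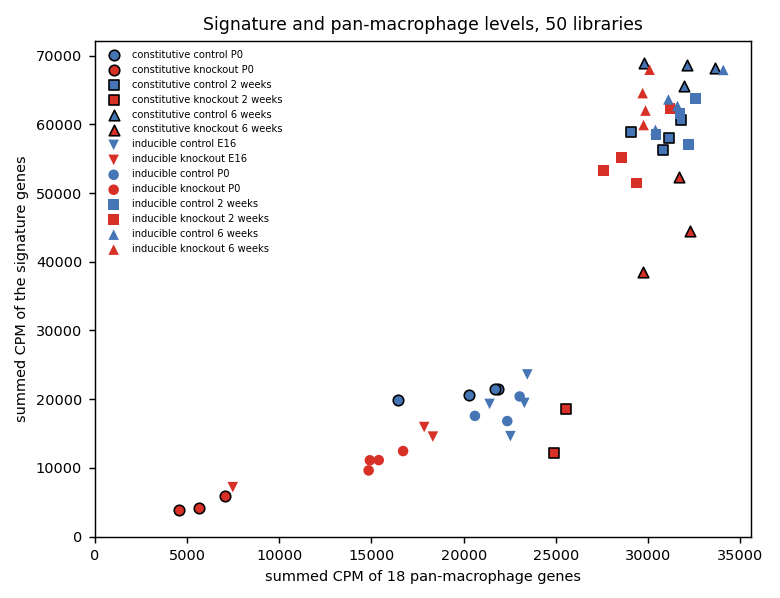
Summed level of the signature genes (y axis, CPM) against the summed level of 18 pan-macrophage genes (x axis, CPM), 1 point per library, by model, genotype and age. The constitutive P0 knockouts are low on both axes (3830 to 5913 and 4553 to 7082 CPM), whereas the constitutive 2-week knockouts are low in the signature (12182 to 18577 CPM) at 24903 to 25525 CPM of pan-macrophage genes. The latter also hold 18783 to 53539 CPM of neutrophil markers, and which cells gave the pan-macrophage RNA was not tested.

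Of the 10 surface genes, 9 fell at constitutive P0 (20.2% of all genes tested), 10 at 2 weeks (17.8%) and 8 at 6 weeks (5.24%), and 6 fell at inducible P0 (3.56%). Tmem119 fell in the constitutive knockouts at P0 and 2 weeks. Values are given here and below in order of the animal numbers. At constitutive P0 its libraries held 526, 352, 465 and 463 CPM in controls and 147, 61.3 and 69.98 CPM in knockouts, and at 2 weeks 2456, 2943, 2882 and 2665 and 926 and 853 CPM. All knockouts lay below all controls at both ages, with changes of -2.64 ± 0.31 and -1.63 ± 0.13. Of the most abundant genes, 12.9% and 25.1% lay wholly below their controls at these ages, and 39.1% and 31.6% wholly above. At inducible P0 10.3% lay wholly below. At constitutive 6 weeks the Tmem119 knockouts held 2626, 2081 and 2548 CPM and overlapped the controls (3008, 3259, 2505 and 3206 CPM). The 6-week change did not pass (-0.36 ± 0.14, adjusted p = 0.134). No inducible comparison called Tmem119, its values at P0 being 536, 378, 318 and 544 CPM against 415, 318 and 491 CPM.

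Fcrls had the largest fall at constitutive P0 over all 3 knockouts, and the third after Slc2a5 and Lag3 without animal 68. Its knockout libraries held 295, 75.9 and 113 CPM against 3557, 3248, 2856 and 2751 CPM in controls, a change of -4.61 ± 0.45 and of -5.40 ± 0.29 without animal 68. The knockout mean was 5.20% of the control mean at P0, 51.2% at 2 weeks and 68.6% at 6 weeks. At 2 weeks the values were 2542 and 1957 against 4071, 3908, 3986 and 5604 CPM, and at 6 weeks 3619, 3011 and 3464 against 5106, 4968, 5159 and 4373 CPM. No library of 1 genotype reached into the range of the other at these ages, and the gene fell at each. It also fell in inducible knockouts at P0 (1361, 1323, 1273 and 1363 against 2380, 3651 and 2464 CPM; -1.07 ± 0.16). At 6 weeks its inducible libraries were widely spread and overlapped, with 1286, 4003, 1020 and 4254 CPM in knockouts and 1192, 2807, 2628 and 2481 CPM in controls.

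Selplg changed most at 2 weeks in the constitutive model, where it had the smallest adjusted p of the signature (6e-06). Knockouts held 771 and 725 CPM and controls 3465, 3641, 4296 and 3533 CPM, a change of -2.32 ± 0.15. At P0, before the control rise, the values were 176, 126 and 153 against 270, 307, 308 and 294 CPM (-1.31 ± 0.15). Under the pan-macrophage scaling this change was 0.45 and passed as a rise. At 6 weeks they were 2831, 2017 and 3367 against 4329, 5055, 4597 and 4898 CPM (-0.83 ± 0.17). The genotypes did not overlap at any of the 3 ages. In the inducible model Selplg fell at P0 (196, 159, 180 and 221 against 291, 303 and 395 CPM) and its knockout means at 2 and 6 weeks were 98.8% and 93.6% of the control means.

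Adgrg1, the adhesion receptor GPR56, was low at birth in the inducible and at 2 weeks in the constitutive knockouts. At constitutive P0 the knockouts held 168, 163 and 133 CPM, 83.02% of the control mean (189, 202, 175 and 180 CPM), a change of -0.63 ± 0.12. Under the pan-macrophage scaling this change was 1.17 and passed as a rise. At 2 weeks they held 66.7 and 16.4 CPM against 1064, 1146, 1063 and 1049 CPM, a change of -4.76 ± 0.59 (-4.12 without animal 89 and -5.94 without animal 80), and at 6 weeks 513, 302 and 503 against 1152, 1133, 856 and 1146 CPM (-1.33 ± 0.19). The gap between the genotypes was thus widest at 2 weeks, when the knockouts stood below their own P0 level. Adgrg1 also had the smallest adjusted p of the signature at inducible P0, with 34.4, 29.05, 18.9 and 26.1 CPM against 188, 148 and 174 CPM (-2.65 ± 0.19; adjusted p = 3.69e-05). By 2 weeks its inducible libraries overlapped (1215, 956, 1018 and 1041 against 1264, 1224, 924 and 1282 CPM). On E16 the library labelled knockout 1, high in neuron markers, held 122 CPM of Adgrg1, and the other knockouts 58.6 and 41.2 CPM. Neuron markers were also higher in the constitutive P0 knockouts. What RNA of other cells added to the Adgrg1 level was not tested.

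In the constitutive knockouts Jam2 fell at 2 weeks and 6 weeks and did not pass at birth. At constitutive P0 its knockouts held 46.1, 41.03 and 47.3 CPM and overlapped the controls (31.6, 47.7, 29.8 and 33.5 CPM). Its change there did not pass (-0.02 ± 0.17, adjusted p = 0.946). Under the pan-macrophage scaling it was 1.73 and passed as a rise. At 2 weeks the knockouts held 6.12 and 0.973 CPM and the controls 148, 157, 171 and 136 CPM, a change of -5.53 ± 0.67 (-4.74 without animal 89 and -7.19 without animal 80). At 6 weeks they held 126, 67.7 and 97.3 against 262, 197, 291 and 200 CPM (-1.34 ± 0.22). The 2-week and 6-week ranges were apart. At inducible 6 weeks every Jam2 knockout library (264, 247, 266 and 263 CPM) lay above every control (211, 223, 213 and 206 CPM), without passing the test (0.26 ± 0.09, adjusted p = 0.963). It was the only gene of the 28 to do so in that comparison, where 2.14% of the most abundant genes did. At constitutive P0 neuron markers were higher in the knockouts (2864 to 3569 CPM, controls 814 to 1761 CPM). On E16 the library labelled knockout 1, high in neuron markers, held 39.3 CPM of Jam2, and the other knockouts 27.1 and 16.3 CPM. What RNA of other cells added to the Jam2 level was not tested.

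Lag3 and Ecscr, both of low level, were reduced at birth in both models. Lag3 was at 4.30, 0.545 and 1.00 CPM in the constitutive P0 knockouts and 36.98, 20.4, 34.2 and 38.04 CPM in controls (-4.39 ± 0.57, and -5.72 without animal 68). At 2 weeks it was at 9.43 and 0.973 against 74.9, 77.7, 59.8 and 52.3 CPM (-3.77 ± 0.82, -2.91 without animal 89 and -5.98 without animal 80), and at 6 weeks at 66.7, 50.8 and 48.4 against 152, 87.8, 113 and 91.8 CPM. The genotypes stayed apart at each age while the knockout mean went from 6.01% to 7.86% and 49.8% of the control mean. In the inducible P0 knockouts Lag3 was at 9.67, 6.89, 4.28 and 15.1 against 33.2, 27.4 and 54.8 CPM (-2.07 ± 0.39). Ecscr had the largest fall of the signature in that comparison, with 3.25, 2.22, 1.11 and 4.81 CPM against 25.1, 21.3 and 37.1 CPM (-3.26 ± 0.41). Its inducible knockouts at 2 weeks held 207, 228, 233 and 239 CPM, overlapping the controls (261, 241, 222 and 201 CPM). In the constitutive knockouts Ecscr was at 13.97%, 5.24% and 36.6% of the control mean at P0, 2 weeks and 6 weeks. Its 2-week change of -4.32 ± 0.56 was -3.66 without animal 89 and -5.53 without animal 80.

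Cd81, a tetraspanin found on many cell types, gave some of the smallest adjusted p-values of the constitutive comparisons. Its knockouts held 527, 405 and 507 CPM at P0 and 368 and 446 CPM at 2 weeks, against 1446, 1446, 1614 and 1530 and 2255, 2203, 2682 and 2207 CPM. No range overlapped, and the changes were -2.01 ± 0.16 and -2.51 ± 0.18, the former reduced to -0.24 under the pan-macrophage scaling, where it did not pass. At 6 weeks the values were 2033, 2056 and 2395 against 2899, 2601, 3274 and 2737 CPM (-0.46 ± 0.13, adjusted p = 0.0428), a change that did not pass when any 1 library but the third knockout was left out. In the inducible model at 2 weeks every knockout (1998, 1942, 1914 and 1818 CPM) lay below every control (2011, 2031, 2134 and 2121 CPM), without passing (-0.18 ± 0.08, adjusted p = 0.295). Of the most abundant genes 2.72% lay wholly below there. The remaining surface genes were Plxdc2, a plexin domain receptor, and Susd3, a sushi domain membrane protein. Plxdc2 fell in 4 of the 7 comparisons, the constitutive 3 and inducible P0, where its knockouts stood at 38.4% of the control mean. Its constitutive P0 change of -3.29 ± 0.38 was -4.03 without animal 68. Susd3 fell at constitutive P0 and 2 weeks (26.4% and 39.3% of the control mean) and did not pass in any other comparison.

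**Figure D4:**
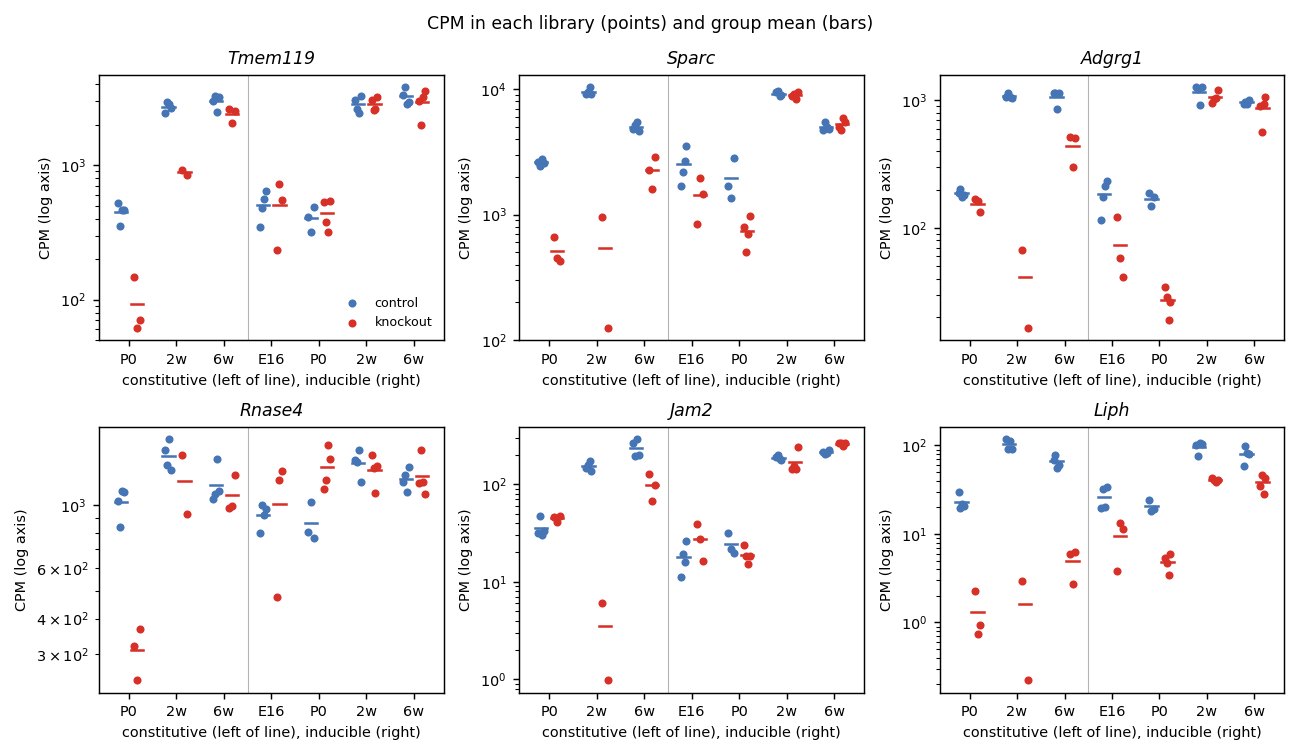
Level in every library (y axis, CPM, log scale) of Tmem119, Sparc, Adgrg1, Rnase4, Jam2 and Liph by model, age and genotype (x axis), 1 point per library with bars at the group means. Liph is lower in the constitutive knockouts than in controls at all 3 ages and Jam2 only from 2 weeks on, whereas Tmem119 overlaps its controls at 6 weeks.

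Of the 6 genes of secreted proteins, 6 fell at constitutive P0 (20.2% of all genes tested), 4 at 2 weeks (17.8%) and 4 at 6 weeks (5.24%). At inducible P0, 3 fell and 1 rose (3.56% and 6.81% of all genes). Among the 6, Cst3 had the highest level. Constitutive knockouts held 1346, 941 and 1005 CPM at P0, 4338 and 2750 CPM at 2 weeks and 14845, 15615 and 22441 CPM at 6 weeks. Their controls held 3680, 3513, 4421 and 4205, then 17435, 15037, 16011 and 13074, then 26538, 26617, 28276 and 25386 CPM. It fell at all 3 ages without overlap (-2.21 ± 0.20, -2.14 ± 0.18 and -0.65 ± 0.17) and did not pass in the inducible comparisons. At 6 weeks Cst3 did not pass when any 1 library but the third knockout was left out. In the inducible knockouts at 2 weeks animal 6 held 21526 CPM of Cst3 and the others 14431 to 15063 CPM.

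Sparc and Serpine2 had the smallest adjusted p-values at constitutive P0 (1.86e-05 each), although under the pan-macrophage scaling their changes were -0.93 and -0.37 and the latter did not pass. Sparc knockouts held 666, 452 and 429 CPM against 2643, 2437, 2781 and 2561 CPM (-2.70 ± 0.20), and at 2 weeks 961 and 125 CPM against the 9206, 9443, 10479 and 9139 CPM of controls (-4.22 ± 0.91, -3.42 without animal 89 and -6.17 without animal 80). At 6 weeks they held 2271, 1598 and 2877 against 4851, 5185, 5484 and 4620 CPM (-1.21 ± 0.19). All 3 ages were without overlap, and the 2 knockouts at 2 weeks differed widely between themselves. Serpine2 knockouts held 473, 375.8 and 344 CPM at P0 against 1172, 1439, 1426 and 1439 CPM (-2.14 ± 0.16). At 2 weeks they held 285 and 20.2 against 1796, 2377, 1861 and 1596 CPM, a change that did not pass (-3.73 ± 1.18, adjusted p = 0.0647) but passed without either knockout and by DESeq2. At 6 weeks Serpine2 fell (797, 347 and 337 against 2023, 1333, 993 and 1347 CPM; -1.58 ± 0.38, adjusted p = 0.0328), although it did not pass without knockout 380, the third knockout, or any 1 control but the first, nor without the filter on low counts. In the inducible P0 knockouts both genes fell, Sparc to 795, 500, 700 and 970 CPM from 1701, 1348 and 2813 CPM in controls and Serpine2 to 709, 526, 620 and 649 CPM from 1241, 1254 and 1310 CPM.

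Olfml3 was reduced at birth and 2 weeks and stood nearest to its control level of the 28 genes at constitutive 6 weeks. Its constitutive knockouts held 246, 68.03 and 65.7 CPM at P0 against 1006, 1019, 733 and 678 CPM (-3.11 ± 0.45, and -4.05 without animal 68). At 2 weeks they held 1715 and 894 against 2593, 2313, 2536 and 3183 CPM (-1.06 ± 0.22). At 6 weeks they held 3992, 3080 and 2822 against 3894, 3694, 3062 and 3156 CPM, overlapping, at 95.5% of the control mean (-0.12 ± 0.15, adjusted p = 0.735). In the inducible P0 libraries the values of Olfml3 were spread (443, 128, 173 and 476 against 333, 778 and 573 CPM) and did not pass (adjusted p = 0.347).

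Rnase4, a secreted ribonuclease whose gene shares 13.38% of its exon bases with Ang, was the 1 signature gene to rise in a knockout comparison. In the inducible P0 knockouts it was at 1145, 1228, 1625 and 1455 CPM, above every control (807, 1029 and 767 CPM), as were 15.7% of the most abundant genes. The change of 0.67 ± 0.18 passed narrowly (adjusted p = 0.0367), did not pass when knockout 49, 53 or 57 or any 1 of the 3 controls was left out, and was 1.11 under the pan-macrophage scaling. At constitutive P0 it fell, with 319, 242 and 367 CPM against 1035, 837, 1123 and 1111 CPM (-2.09 ± 0.20), a change that was -0.31 under the pan-macrophage scaling and did not pass there. It had the highest knockout level of the signature at constitutive 2 weeks, 81.4% of the control mean, and did not pass there (1505 and 932 against 1561, 1384, 1711 and 1327 CPM; -0.32 ± 0.17, adjusted p = 0.16). That change was -0.59 without animal 80 and -0.68 under the pan-macrophage scaling and passed in both, and it was -0.09 without animal 89 and did not pass.

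Liph fell in more comparisons than any other of the 28 genes, 5 of 7. In the constitutive knockouts it was at 2.29, 0.7498 and 0.945 CPM at P0, 2.97 and 0.221 CPM at 2 weeks and 6.00, 2.73 and 6.31 CPM at 6 weeks. Controls held 29.8, 19.8, 21.8 and 20.9, then 119, 91.9, 112 and 90.7, then 69.3, 78.01, 55.96 and 60.6 CPM, so that the knockout mean was 5.76%, 1.54% and 7.60% of the control mean. The changes were -4.45 ± 0.39, -6.14 ± 0.75 and -3.78 ± 0.27, the last having the smallest adjusted p of the signature at 6 weeks (1.22e-05). The first was -5.12 without animal 68, and the second -5.22 without animal 89 and -8.73 without animal 80. In the inducible model it fell at P0 (5.29, 4.70, 3.46 and 5.98 against 24.4, 18.3 and 19.4 CPM; -2.08 ± 0.26). At 2 weeks Liph was the only signature gene to fall, with 41.2, 42.5, 40.2 and 38.6 CPM against 101, 76.2, 107 and 104 CPM (-1.33 ± 0.11, adjusted p = 4.64e-06). At 6 weeks every knockout (46.1, 28.6, 43.2 and 35.1 CPM) still lay below every control (81.4, 79.5, 58.1 and 98.99 CPM), just short of the threshold (-1.08 ± 0.18, adjusted p = 0.051). The mean was 48.1% of the control mean there, with 1.14% of the most abundant genes lying wholly below their controls.

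Both transporters fell at constitutive P0 (20.2% of all genes tested did). Slc2a5, the fructose transporter GLUT5, was at 26.4, 3.48 and 1.89 CPM in the constitutive P0 knockouts against 113, 99.6, 122 and 134 CPM (-3.81 ± 0.89), animal 68 being several times higher than the other two knockouts. Without animal 68 the change was -5.83. At 2 weeks Slc2a5 was at 95.1 and 27.3 against 395, 436, 422 and 411 CPM (-2.82 ± 0.46, -2.23 without animal 89 and -3.83 without animal 80) and at 6 weeks at 316, 145 and 338 against 519, 604, 463 and 594 CPM. The knockouts stayed below all controls throughout, at 9.04%, 14.7% and 48.9% of the control mean. In the inducible model Slc2a5 was lower in every knockout on E16 (26.9, 57.8 and 54.3 against 104, 155, 152 and 176 CPM; -1.74 ± 0.34, adjusted p = 0.126) and fell at P0 (33.6, 23.6, 20.7 and 43.4 against 124, 103 and 111 CPM; -1.89 ± 0.24). At 2 weeks it overlapped its controls, at 102% of their mean. Slco2b1, an organic anion transporter, fell in the 3 constitutive comparisons (24.98%, 31.03% and 76.7% of the control mean) and did not pass in the inducible ones, at 87.9% of the control mean at P0.

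The lipid mediator enzymes fell together at birth in both models, 4 of 4 in each (20.2% and 3.56% of all genes tested in the constitutive and inducible model). Ptgs1, the cyclooxygenase COX-1, was at 125, 41.03 and 45.8 CPM in the constitutive P0 knockouts against 834, 664, 828 and 774 CPM (-3.81 ± 0.38, and -4.53 without animal 68), and at 224, 202, 191 and 315 CPM in the inducible ones against 749, 710 and 964 CPM (-1.77 ± 0.20). At constitutive 2 weeks it held 370 and 402 against 1560, 1689, 1608 and 1624 CPM (-2.07 ± 0.14), and the genotypes were apart in all 3 groups. Its E16 libraries were also apart (185, 449 and 417 against 673, 810, 810 and 955 CPM) with a difference of -1.29 ± 0.36 that did not pass (adjusted p = 0.212). The means of Ltc4s, Hpgds and Lpcat2, an acyltransferase that makes platelet-activating factor, were 8.46%, 10.5% and 14.3% of the control means at constitutive P0, where the change of Ltc4s was -3.91 ± 0.54, and -5.04 without animal 68. In the inducible P0 knockouts they were 35.5%, 58.6% and 41.6%. At constitutive 6 weeks Ltc4s, Hpgds and Ptgs1 fell (63.03%, 74.5% and 69.6%) and Lpcat2 did not pass (86.3%).

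Both measured Golgi genes fell in the constitutive knockouts at P0 and 2 weeks (20.2% and 17.8% of all genes tested). Golm1, a Golgi membrane protein, was at 22.4% and 40.04% of the control mean, and St3gal6, a sialyltransferase, at 37.1% and 33.7%. The P0 change of St3gal6 was -0.03 and did not pass under the pan-macrophage scaling, and its 2-week change of -1.62 ± 0.35 was -2.31 without animal 80. At 6 weeks Golm1 fell (64.1%) and St3gal6 did not pass (71.5%, adjusted p = 0.0611). In the inducible P0 knockouts St3gal6 fell (72.8, 68.4, 88.6 and 77.7 against 111, 132 and 101 CPM) and Golm1 did not pass (84.7%).

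Of the 4 cytoskeletal genes, 3 fell at constitutive P0 (20.2% of all genes tested), 4 at 2 weeks (17.8%), 2 at 6 weeks (5.24%) and 1 at inducible P0 (3.56%). Fscn1, the actin-bundling protein fascin, did not pass at constitutive P0, where its knockouts held 129, 159 and 111 CPM and overlapped the controls (122, 81.98, 96.5 and 56.5 CPM; 0.20 ± 0.23, adjusted p = 0.501). Under the pan-macrophage scaling this change was 2.06 and passed. At 2 weeks Fscn1 fell to 29.3 and 10.7 CPM against 250.9, 280, 187 and 306 CPM (-3.72 ± 0.41, and -4.47 without animal 80) and at 6 weeks was at 131, 84.3 and 165 against 347, 528, 246 and 388 CPM (-1.62 ± 0.29). Both later ages were without overlap, as for Jam2. On E16 the library labelled knockout 1, high in neuron markers, held 156 CPM of Fscn1, and the other knockouts 68.9 and 69.1 CPM. Neuron markers were also higher in the constitutive P0 knockouts. What RNA of other cells added to the Fscn1 level was not tested. Arhgap5, a GTPase-activating protein, fell at all 3 constitutive ages (60.1%, 23.3% and 65.1% of the control mean) and at inducible P0 (63.1%). Its constitutive P0 change was 0.69 under the pan-macrophage scaling and passed as a rise. Bin1, a membrane-bending protein, and Abi3, of an actin-regulating complex, fell at constitutive P0 (23.6% and 17.6%) and 2 weeks (50.7% and 50.98%) and did not pass at 6 weeks or in the inducible comparisons.

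**Figure D5:**
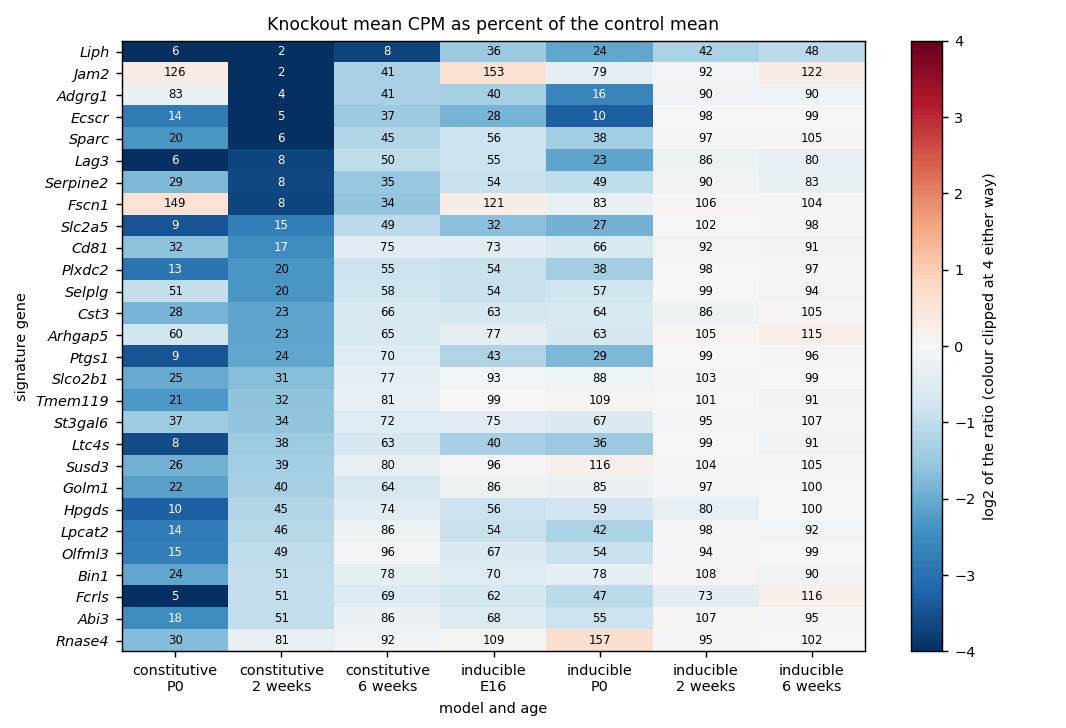
Mean knockout level of each of the 28 signature genes (rows) as a percent of the control mean in the 7 pairs of groups (columns), printed in each cell and coloured by the log2 of the ratio. The median constitutive gene goes from 21.4% over 23.5% to 65.6%, and the median inducible gene from 62.5% on E16 over 56.4% and 97.5% to 98.1%.

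Whether the loss itself changed with age was tested as the later minus the earlier knockout effect. For a gene below its controls, a value above 0 means that the gap to them had narrowed. Between constitutive P0 and 2 weeks the genes parted: 11 effects rose (21.7% of all genes tested) and 5 fell (9.07%), under the main scaling. Scaled to the pan-macrophage genes 1 rose and 18 fell (2.46% and 61.1% of all genes). The 5 whose effect fell were Jam2 (-5.57 ± 0.53), Adgrg1 (-4.20 ± 0.44), Fscn1 (-3.99 ± 0.47), Arhgap5 (-1.11 ± 0.23) and Selplg (-1.08 ± 0.22). Jam2 and Fscn1 had no called change at P0 (-0.02 and 0.20), so that a gap opened rather than widened. Neuron and astrocyte markers were higher in the P0 knockouts, and their part in these differences was not tested. Among the 11 whose gap narrowed, Fcrls had the largest difference (3.57 ± 0.51), followed by Ltc4s (2.43 ± 0.66) and Hpgds (2.34 ± 0.40). Without animal 68 the counts were 15 and 5, without animal 89 they were 9 and 6, and without animal 80 they were 8 and 9.

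Between 2 and 6 weeks 21 of 28 constitutive effects rose (5.88% of all genes) and none fell (9.92%), none being lower by DESeq2 or at an unadjusted p under 0.05 (17.6% of all genes). The median was 1.44 against 0.01 over all genes. Cd81 had the smallest adjusted p (2.04 ± 0.22, adjusted p = 7.95e-05), then Ptgs1 (1.49 ± 0.21) and Tmem119 (1.26 ± 0.19). Jam2 and Adgrg1, whose effects had fallen from P0 to 2 weeks, had the largest of these differences (4.17 ± 0.61 and 3.41 ± 0.52). The 7 that did not pass were Bin1, Fcrls, Golm1, Ltc4s, Rnase4, Serpine2 and St3gal6. The count was 22 without animal 380 and 16 without animal 89.

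In the inducible model the gap narrowed between P0 and 2 weeks, where 13 effects rose (2.67% of all genes) and 1 fell, that of Rnase4 (1.71%). The smallest adjusted p-values were those of Adgrg1 (2.49 ± 0.22), Ptgs1 (1.74 ± 0.21) and Ecscr (3.22 ± 0.38). Rnase4 went from 157% of its control mean at P0, above its controls, to 94.6% at 2 weeks. The fall of its effect (-0.76 ± 0.21, adjusted p = 0.044) was lost in 1 fit over all groups and in every fit that left out 1 library other than control 4 (2 weeks), knockout 48 or control 55 (P0). That fit over all groups called 7 rises (343 of all 21417 genes rose). Between E16 and P0, and between 2 and 6 weeks, edgeR called no gene of all those tested (0.0% in either direction). At an unadjusted p under 0.05, 2 signature effects were lower and none higher in the first step (3.11% and 2.08% of all genes), and none was lower and 1 higher in the second (3.37% and 3.47%). DESeq2 called none of the signature in either.

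Set against each other, the constitutive effect was the lower in most genes at P0 and 2 weeks and in 9 of 28 at 6 weeks. The models differ in Cre, in tamoxifen and in when deletion can begin, which cannot be told apart. At P0 the constitutive effect was lower in 21 of 28 genes (16.9% of all genes) and higher in 1 (14.0%), Adgrg1, although the pan-macrophage scaling gave 9 and 6 (0.993% and 58.3% of all genes). Adgrg1 differed by 2.05 ± 0.21, Rnase4 by -2.72 ± 0.28 and Susd3 by -2.47 ± 0.26, the 3 smallest adjusted p-values. Fcrls had the largest difference (-3.50 ± 0.48). At 2 weeks 25 were lower (14.7%) and none higher (16.6%), with Ptgs1 (-1.99 ± 0.14), Cd81 (-2.34 ± 0.17) and Plxdc2 (-2.28 ± 0.19) having the smallest adjusted p-values. The 3 that did not pass were Fcrls, Olfml3 and Rnase4. At 6 weeks 9 were lower (2.41%) and none higher (2.54%): Adgrg1, Cst3, Ecscr, Fscn1, Jam2, Liph, Plxdc2, Slc2a5 and Sparc. Liph (-2.68 ± 0.33), Jam2 (-1.59 ± 0.23) and Sparc (-1.24 ± 0.21) had the smallest adjusted p-values. None was higher at 2 or 6 weeks by DESeq2 or at an unadjusted p under 0.05 (21.2% and 7.95% of all genes). Without animal 68 the P0 counts were 22 and 1, without animal 89 the 2-week count was 24, and without animal 380 the 6-week count was 7.

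By the share of the control level that remained at 6 weeks in the constitutive knockouts, the order ran from Liph (7.60%), Fscn1 (33.6%), Serpine2 (34.7%), Ecscr (36.6%), Jam2 (40.9%), Adgrg1 (41.04%), Sparc (44.7%), Slc2a5 (48.9%) and Lag3 (49.8%) to Susd3 (79.9%), Tmem119 (80.8%), Abi3 (85.9%), Lpcat2 (86.3%), Rnase4 (91.7%) and Olfml3 (95.5%). Knockout and control libraries overlapped in 7 of the 28 at that age: Tmem119, Susd3, Olfml3, Rnase4, Ltc4s, Lpcat2 and Abi3. The other 21 lay wholly below (8.91% of the most abundant genes did). Without animal 380, 14 of the 20 falls at 6 weeks were called, and Cd81, Cst3, Serpine2, Slco2b1, Ltc4s and Ptgs1 were not. Without the second control, 13 were called. In all, 8 of the 20 calls were lost without at least 1 library, those 6 and the ones of Slc2a5 (without any 1 control) and Hpgds (without the first knockout). Leaving out animal 68 at P0 gave 26 falls, and leaving out animal 89 at 2 weeks gave 27.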

How the data were processed

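RNA was extracted from sorted microglia, amplified from 1 ng with a low-input kit over 11 cycles and made into libraries that do not mark strand, per the labels' protocols. Per the submitters' processing notes, the authors used CASAVA 1.8.2, STAR 2.5.2b, featureCounts 1.5.1 and limma 3.28.21 with the GRCm38 build. No annotation release is given in these sources. The deposited values are raw read counts per gene, 1 column per library, with totals of 11050277 to 29651179. CPM was computed as a count divided by the library total.

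Each comparison was fitted on the counts of its own groups across all genes with edgeR 4.0.16 in R 4.3.3 (filterByExpr, TMM scaling, robust quasi-likelihood test, Benjamini-Hochberg adjustment over all genes tested, threshold 0.05). Values are log2 changes ± SE, the SE being the change divided by the square root of F. Age and model differences were interaction terms. Of the 20 comparisons, those of 1 model share control libraries. Alternatives were DESeq2 1.42.0, RLE scaling, scaling to 18 pan-macrophage genes (Cx3cr1 not among them), no filter on low counts, 1 fit over all 14 groups, and leaving out each library in turn. Control and knockout groups share no animal number, so no pairing was used. Replicates differed by more than sampling noise in every pair (chi-square per gene 9.98 to 214).

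All 29 genes were named. In knockout comparisons the text names the 3 smallest adjusted p-values, the 3 largest falls, every rise and, where 6 or fewer, every gene that did not pass. For control steps it names the 3 largest rises and falls, and for interactions the 3 smallest adjusted p-values. The members and lists were chosen with earlier results of these data known. The test was tested on simulated data for constitutive P0 with 18311 genes: 66 of 100 genes changed 2-fold and 100 of 100 changed 4-fold were recovered, and 13 of 18111 unchanged genes were called. The simulation gave every gene the same spread, held no broad shift in RNA make-up and changed only genes that were not of low count. Gene positions are from GENCODE vM21 and promoters from RefSeq.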

Additional observations from a re-analysis of the deposited data

Results flagged for a closer look

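In 21 of 261 sets tested, each being 1 gene in 1 group, 1 library stood far from the others, relative to the spread among them. A small difference in level could thus be flagged. Chance gives about 5% of sets. Sets from 1 group share their libraries and are not independent, so no excess over chance is read from this count. Only groups of 4 libraries were tested. Groups of 2 or 3 were left out, among them every constitutive knockout group and the E16 knockouts. Among constitutive controls, animal 83 at 2 weeks held 5604 CPM of Fcrls (others 3908 to 4071), animal 78 held 1146 CPM of Adgrg1 (others 1049 to 1064) and animal 81 held 2682 CPM of Cd81 (others 2203 to 2255). At 6 weeks, the third animal held 856 CPM of Adgrg1 (others 1133 to 1152) and 601 CPM of St3gal6 (others 386 to 417). At P0, animal 69 held 1172 CPM of Serpine2 (others 1426 to 1439), 832 CPM of Lpcat2 (others 732 to 746) and 749.6 CPM of Golm1 (others 527 to 545).

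Among inducible controls at 2 weeks, animal 2 held 2396 CPM of Fcrls (others 3585 to 3830.1) and 99.5 CPM of Lag3 (others 76.7 to 77.9), animal 3 held 924 CPM of Adgrg1 (others 1224 to 1282) and animal 1 held 265 CPM of Susd3 (others 214 to 220.1). At 6 weeks, animal 11 held 113 CPM of Ltc4s (others 90.3 to 92.8) and animal 1 held 1004 CPM of Hpgds (others 807 to 822). On E16, animal 2 held 394 CPM of Bin1 (others 533 to 555).

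Among inducible knockouts at 2 weeks, animal 6 held 241 CPM of Jam2 (others 142 to 155), 21526 CPM of Cst3 (others 14431 to 15063) and 98.6 CPM of Abi3 (others 81.2 to 82.7). Animal 16 held 292 CPM of St3gal6 (others 424 to 433) and animal 13 held 941 CPM of Bin1 (others 958 to 961). At 6 weeks, animal 4 held 1178 CPM of Hpgds (others 745 to 767).

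The knockout effect differed between ages or between models in edgeR's interaction tests, with the log2 differences as follows. From constitutive P0 to 2 weeks they were -5.57 for Jam2, -4.20 for Adgrg1 and -3.99 for Fscn1. From constitutive 2 to 6 weeks they were 2.04 for Cd81, 1.49 for Ptgs1 and 1.26 for Tmem119. From inducible P0 to 2 weeks they were 2.49 for Adgrg1, 1.74 for Ptgs1 and 3.22 for Ecscr. The constitutive effect minus the inducible effect at P0 was 2.05 for Adgrg1, -2.72 for Rnase4 and -2.47 for Susd3. At 2 weeks it was -1.99 for Ptgs1, -2.34 for Cd81 and -2.28 for Plxdc2, and at 6 weeks -2.68 for Liph, -1.59 for Jam2 and -1.24 for Sparc.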

How the results depend on the processing

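No paired analysis was possible because the control and knockout groups compared share no animal number. Where a count below repeats one given above, its share over all genes stands there. Under scaling to pan-macrophage genes, 5 signature genes rose at constitutive P0 and 2 at inducible P0, the 2-to-6-week step had 7 falls and 3 rises in constitutive and 11 falls and 2 rises in inducible controls, and the change of the constitutive effect from P0 to 2 weeks had 18 falls and 1 rise. The inducible effect had 2 falls over that step (3489 of all 17914 genes tested fell). The constitutive minus inducible effect had 9 falls and 6 rises at P0 (191 and 11211 of 19236) and 16 falls at 6 weeks (760 of 15492). The same scaling turned the signs of Selplg (0.45), Adgrg1 (1.17), Arhgap5 (0.69) and Jam2 (1.73) at constitutive P0, each passing as a rise. Of these, Selplg, Adgrg1 and Arhgap5 had fallen under the main scaling. It also turned the signs of the median on E16 (0.031) and of the median change of the constitutive effect from P0 to 2 weeks (-1.29). The 1 fit over all groups tested 21417 genes, and brackets give the matching counts among all of them. In it, 12 fell at constitutive 6 weeks (789) and 13 on E16 (1012), and none rose at inducible P0 (1292). The 2-to-6-week step had 1 fall and 1 rise in constitutive (865 and 823) and 1 fall and 0 rises in inducible controls (825 and 700). From P0 to 2 weeks the constitutive effect had 10 falls (1975) and the inducible effect 0 falls and 7 rises (246 and 343). The constitutive minus inducible effect had 5 falls at 6 weeks (316). Jam2 at constitutive P0 was 0.20 in that fit, 0.099 without control 70, -0.0817 without control 71 and 0.066 without knockout 73. DESeq2 called 6 falls on E16 (420 of all 17594 genes), 2 at inducible 2 weeks (314 of 13921) and 1 at inducible 6 weeks (14 of 14217). It called 1 fall from E16 to P0 (179 of 17251) and 8 of the constitutive effect from P0 to 2 weeks (2733 of 19997). Without the filter, 2 fell at inducible 2 weeks (403 of all 26654 genes) and 1 at inducible 6 weeks (7 of 26568), and RLE scaling gave 1 at inducible 6 weeks (3 of 14217). Leaving out 1 library at a time, falls ranged from 26 to 26 at constitutive P0, 26 to 28 at 2 weeks, 13 to 20 at 6 weeks, 0 to 6 on E16, 14 to 17 at inducible P0 (rises 0 to 1), 1 to 5 at 2 weeks and 0 to 1 at 6 weeks. The 2-to-6-week step ranged over 2 to 4 falls and 3 to 7 rises in constitutive and 3 to 6 falls and 3 to 5 rises in inducible controls. The constitutive effect had 5 to 9 falls and 8 to 15 rises from P0 to 2 weeks and 16 to 25 rises from 2 to 6 weeks. The inducible effect had 0 to 1 falls and 10 to 16 rises from P0 to 2 weeks and 0 to 1 rises from 2 to 6 weeks. The constitutive minus inducible effect had 18 to 22 falls and 1 to 1 rises at P0, 24 to 26 falls at 2 weeks and 6 to 12 falls at 6 weeks. Apart from E16 without knockout 1, shares over all genes are not given for fits that left out 1 library. Nothing particular to the signature is read from those counts. Among 890 values for the 63 results on named genes, 843 kept direction and side of the threshold, 36 lost the call, 7 gained it and 4 changed sign. The causes were not tested. With 2 knockouts at constitutive 2 weeks and 3 at P0, 6 weeks and E16, small differences could be missed: in simulated constitutive P0 data, 66 of 100 changes of 2-fold were recovered. That simulation did not model the 2 knockouts of constitutive 2 weeks or the spread between the E16 knockouts, so its share does not speak for those groups.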
